A study of Mus musculus with 18 samples.

Results

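The genes described here encode the proteins of the cytosolic ribosome, taken as every gene symbol made of Rpl or Rps and then a number (with at most one closing a, x or l), of Rplp0, Rplp1 or Rplp2, or of Rpsa. The rule found 79 genes among the 16474 of the deposited table, 48 of the large subunit and 31 of the small subunit. Each ribosome is built from one copy of nearly every one of these proteins on a scaffold of ribosomal RNA, so the genes are as a rule transcribed in step and at high levels in cells that grow. Their messenger RNAs start with a C followed by a run of C and T bases, the 5' terminal oligopyrimidine tract, through which their translation follows the growth kinase mTOR. PI3K p110γ, the enzyme lost in the mutant cells, is a lipid kinase of leukocytes that acts downstream of chemokine receptors and upstream of Akt and mTOR.

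RNA-seq libraries were made from bone marrow-derived macrophages of C57BL/6 mice, 8 weeks old, that were p110g-/- or wild type (WT). Marrow cells were grown for 6 days in M-CSF, the growth factor of macrophages, at 50 ng/ml, and then kept at 20 ng/ml. The IFNg/LPS groups received interferon-γ and 100 ng/ml bacterial lipopolysaccharide for 24 h, the IL-4 groups received 20 ng/ml interleukin-4 for 48 h, and the M-CSF groups received M-CSF alone for 24 h. Each of the 6 groups, one per genotype and condition, held 3 libraries, numbered 1 to 3. IL-4 and M-CSF libraries therefore differ in time as well as in stimulus, and the parts of each in a difference between them cannot be told apart. The labels give neither the way the p110g allele was made nor whether a group's libraries came from separate animals, so the tests measure the spread between these libraries, which may be technical. The cultures were measured in bulk, so fewer cells of one kind and less RNA per cell cannot be told apart.

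Libraries held 40081565 to 69602665 reads on genes, of which 168063 to 1430256 fell on the 79 genes, and between libraries of one group 28.7 to 68.2% of genes differed by more than counting noise. All 11 macrophage markers in the table (of 13 listed) were present, with a summed signal of 989300 to 1057000 in p110g-/- and 1064000 to 1134000 in WT IFNg/LPS libraries, 625300 to 719200 in p110g-/- and 642200 to 754400 in WT IL-4 libraries, and 1368000 to 1442000 in p110g-/- and 1249000 to 1456000 in WT M-CSF libraries. Pik3cg, which encodes p110γ, had 1888, 2046 and 1966 in p110g-/- M-CSF libraries and 5308, 5330 and 4994 in WT M-CSF libraries, and 956, 1083 and 965 in p110g-/- IL-4 libraries and 3068, 2953 and 3280 in WT IL-4 libraries. With IFNg/LPS it had 3691, 1410 and 2037 in the libraries labelled p110g-/- and 3560, 2309 and 2604 in WT libraries. The library labelled p110g-/- IFNg/LPS number 1 thus lay above all 3 WT libraries, and counts, medians and the values of leading genes of that group are also given without it. The log2 fold change of Pik3cg in p110g-/- over WT libraries was -1.41 with M-CSF (limma adjusted p = 0.00271), -0.34 with IFNg/LPS (0.374) and -1.63 with IL-4 (0.000631), and which part of the gene the allele lacks is not given. All levels are the authors' signal, which is a read count divided by one factor per library.

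The bases around the start of transcription are shown for members on which the results below turn. Rps18, Rps21 and Rps6 were lower with IFNg/LPS, and their RNA opens with the tract at the start shown. Rpl10a had the lowest fold change, and Rps24 was not lower on the authors' scaling. The annotated RNA of neither opens with the tract. In Rps24 a run of C and T bases crosses the annotated start, whose first base is T. Each window holds the 20 bases before the start and the first 10 bases of the RNA on the coding strand, from RefSeq on GRCm38.p6, a later build than the one named for the reads. Capitals mark the C at the annotated start and the unbroken run of C and T after it. The windows lie at chr17:33955656-33955685 on the minus strand for Rps18, chr2:180257359-180257388 on the plus strand for Rps21, chr4:86857358-86857387 on the minus strand for Rps6, chr17:28328451-28328480 on the plus strand for Rpl10a, and chr14:24490658-24490687 on the plus strand for Rps24. Rps21, Rpl10a and Rps24 have a second RefSeq start, none of which matches (for Rps21 at chr2:180257429-180257458), and the first is shown.
Rps18: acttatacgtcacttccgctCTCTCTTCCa
Rps21: gcacttaccgaggacccgccCTCCTgccca
Rps6: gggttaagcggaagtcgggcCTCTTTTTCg
Rpl10a: gcgtggtggcgcccccccagcggccgcaaa
Rps24: acgcccccgcgctggggtccttccttgcgc

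A start was counted as matching when its first base was C and each of the next 4 bases was C or T, read on the coding strand alone, since a start has a direction. Of the 79 genes, 59 had a RefSeq start, and 13 of these genes (22%) matched, against 813 of 27025 genes (3.01%) in the whole table of starts. Counted over starts, the match was found at 13 of 71 (18.3%) starts of ribosomal protein genes and at 823 of 32851 (2.51%) starts in all. The match is a description of one annotated base position, and no match says only that these letters do not stand at that position.

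The first question is what inflammatory activation did to these genes. With IFNg/LPS the RNA of nearly the whole ribosome was lower than with M-CSF, in both genotypes and in both subunits. In p110g-/- macrophages 75 of the 79 genes fell and 2 rose, and in WT macrophages 76 fell and 1 rose (limma, adjusted p under 0.05). Among all 15627 genes tested, 36.8% fell and 36.2% rose in p110g-/- macrophages, and 37.5% fell and 36.3% rose in WT macrophages. The median log2 fold change of the 79 genes was -1.85 in p110g-/- and -1.72 in WT macrophages, where the median of all genes was -0.01 and -0.01. At these medians 27.8% of the M-CSF level was left in p110g-/- and 30.4% in WT macrophages. The 48 large-subunit genes had medians of -1.85 in p110g-/- and -1.75 in WT macrophages, and the 31 small-subunit genes had medians of -1.81 and -1.71.

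The summed signal of the 79 genes was 270145, 337116 and 369255 in p110g-/- IFNg/LPS libraries, against 899951, 924986 and 994269 in p110g-/- M-CSF libraries. It was 248118, 382360 and 433295 in WT IFNg/LPS libraries, against 957228, 980445 and 992178 in WT M-CSF libraries. Every IFNg/LPS library lay below every M-CSF library, and number 1 was the lowest of its IFNg/LPS group in both genotypes. As a share of all signal in a library, the 79 genes took 0.53% ± 0.09 in p110g-/- IFNg/LPS macrophages and 2.02% ± 0.076 in p110g-/- M-CSF macrophages (SD, n = 3 each). In WT macrophages they took 0.543% ± 0.16 with IFNg/LPS and 2.12% ± 0.023 with M-CSF (SD, n = 3 each). Groups did not overlap, with IFNg/LPS below M-CSF, for 75 genes in p110g-/- (37.9% of all genes) and 76 genes in WT macrophages (38.7%). They stood apart the other way for 1 gene in each, Rpl3l (37.3% and 37.7% of all genes). That difference was set by the filter on low values, which Rpl3l passed through the IFNg/LPS libraries alone.

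**Figure D1:**
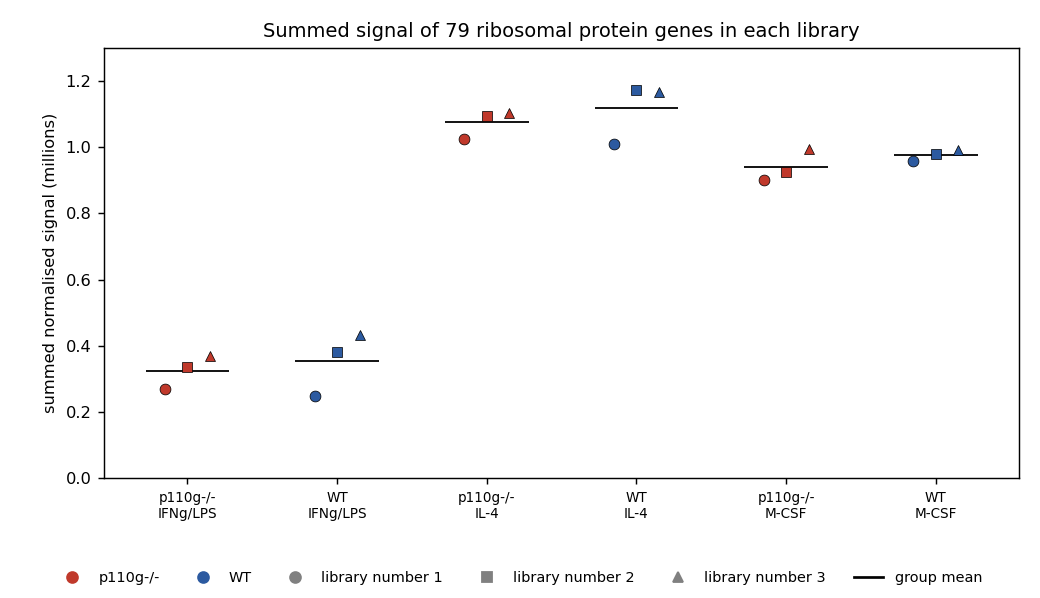
Summed signal of the 79 ribosomal protein genes in each library, by condition and genotype (points are single libraries, the axis is the authors' signal per library). The 6 IFNg/LPS libraries lie between 248118 and 433295, below the 12 others, which lie between 899951 and 1173857.

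The fall was not of one size. In p110g-/- macrophages 24 genes had a log2 fold change under -2, 44 had one between -2 and -1, 9 had one between -1 and 0, and 2 had one above 0. In WT macrophages these numbers were 18, 50, 8 and 3. The order of the genes was alike in the 2 genotypes, with a Pearson r of 0.98 and a Spearman rho of 0.96 across 77 genes between log2 fold changes that come from separate libraries, though genes are not independent replicates and the correlation is a description. Rpl3l and Rpl39l, which have few reads, were left out of it. Across the same 77 genes the WT log2 fold change had an r of 0.01 with transcript length, -0.15 with GC content and 0.04 with the level per kilobase. The 13 genes whose start matched the tract had a median of -1.94 in p110g-/- and -1.75 in WT macrophages, and the 44 others of those 77 with a RefSeq start had medians of -1.81 and -1.75.

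Among large-subunit genes the lowest log2 fold change was that of Rpl10a, which encodes the protein of the mobile L1 stalk, near the site where spent tRNA leaves. Rpl10a had 540, 824 and 832 in p110g-/- IFNg/LPS libraries, against 12133, 14045 and 14246 in p110g-/- M-CSF libraries. It had 539, 1106 and 1178 in WT IFNg/LPS libraries, against 11524, 13968 and 13521 in WT M-CSF libraries. No groups overlapped, and number 1 was the lowest library of each of the 4 groups. Rpl10a fell by 4.22 ± 0.22 on the log2 scale in p110g-/- macrophages (SE, limma adjusted p = 1.5e-10) and by 3.87 ± 0.22 in WT macrophages (SE, limma adjusted p = 4.2e-10), leaving 5.43% and 7.24% of the M-CSF level. By signal per kilobase of transcript it stood 75th in p110g-/- and 73rd in WT among the members with IFNg/LPS, and 23rd and 29th with M-CSF.

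Rpl3, which lies close to the peptidyl transferase centre, had 2677, 4184 and 3492 in p110g-/- IFNg/LPS libraries, against 14556, 16446 and 17149 in p110g-/- M-CSF libraries. In WT macrophages it had 2055, 3140 and 3080 with IFNg/LPS, against 16012, 16898 and 16545 with M-CSF. All IFNg/LPS libraries were below all M-CSF libraries. Its log2 fold change was -2.24 ± 0.16 in p110g-/- (SE, limma adjusted p = 4.11e-09) and -2.60 ± 0.16 in WT macrophages (SE, limma adjusted p = 7.06e-10). Rpl10, the protein that joins the large subunit in its last step of assembly, had 7028, 7879 and 8472 in p110g-/- IFNg/LPS libraries, against 30750, 31145 and 33045 in p110g-/- M-CSF libraries. Its 3 libraries with the stimulus stood close together, and its log2 fold change was -2.02 ± 0.14 (SE, limma adjusted p = 2.15e-09). In WT macrophages Rpl10 had 6778, 9779 and 11646 with IFNg/LPS, against 29819, 29194 and 31657 with M-CSF, a log2 fold change of -1.72 ± 0.14 (SE, limma adjusted p = 1.44e-08).

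The acidic stalk proteins, which recruit elongation factors to the large subunit, were lower too. Rplp0, the base of the stalk and the member of highest mean signal, had 15966, 20505 and 21044 in p110g-/- IFNg/LPS libraries, against 40485, 39500 and 41248 in p110g-/- M-CSF libraries. In WT macrophages Rplp0 had 14272, 21918 and 24019 with IFNg/LPS, against 43554, 44188 and 43347 with M-CSF. Neither pair of groups overlapped, and the log2 fold change was -1.09 in p110g-/- and -1.16 in WT macrophages. Those of Rplp1 were -1.21 in p110g-/- and -1.17 in WT macrophages, and those of Rplp2 were -1.64 and -1.66.

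In the small subunit, Rps18, a protein of its head, had 1863, 2865 and 3124 in p110g-/- IFNg/LPS libraries, against 12910, 14063 and 15332 in p110g-/- M-CSF libraries. In WT macrophages it had 1442, 2895 and 3609 with IFNg/LPS, against 14197, 14976 and 14901 with M-CSF. Number 1 was the lowest library under the stimulus in both genotypes, and no groups overlapped. The log2 fold change was -2.46 ± 0.25 in p110g-/- (SE, limma adjusted p = 2.66e-07) and -2.57 ± 0.25 in WT macrophages (SE, limma adjusted p = 1.59e-07). Rps21, whose start holds the tract shown above, had 1054, 1412 and 1562 in p110g-/- IFNg/LPS libraries, against 8670, 8447 and 9172 in p110g-/- M-CSF libraries. In WT macrophages Rps21 had 1085, 1946 and 2538 with IFNg/LPS, against 8585, 8945 and 9919 with M-CSF. The groups stood apart in both genotypes, with log2 fold changes of -2.72 ± 0.22 in p110g-/- (SE, limma adjusted p = 1.83e-08) and -2.38 ± 0.22 in WT macrophages (SE, limma adjusted p = 8.65e-08). Rps7 had a log2 fold change of -2.51 in p110g-/- and -2.30 in WT macrophages. Rps6, the classic substrate of S6 kinase downstream of mTOR, had -1.89 in p110g-/- and -1.75 in WT macrophages, and Rpsa, which serves at the small subunit and is also known as the laminin receptor, had -1.92 and -1.83.

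**Figure D2:**
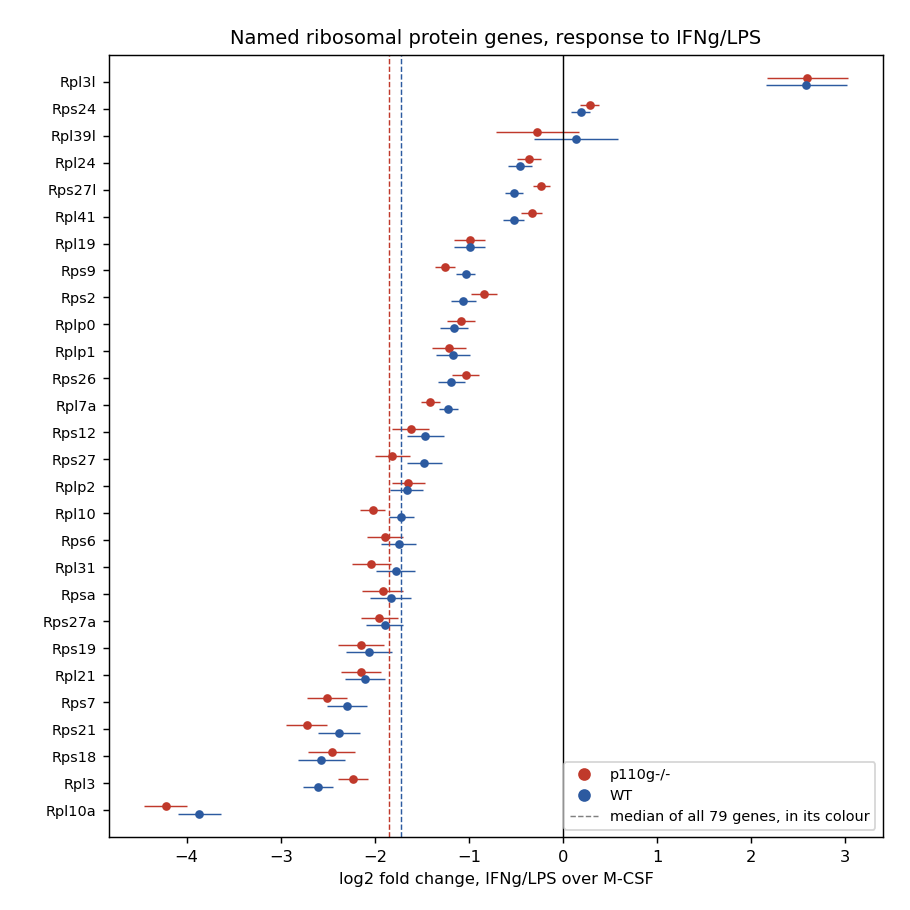
Log2 fold change of IFNg/LPS over M-CSF with its SE for the ribosomal protein genes named in the text, p110g-/- in red above WT in blue, with dashed lines at the medians of all 79 genes. Rpl10a lies lowest in both genotypes, Rps24 lies just above 0, and Rpl3l lies above 2.5 in both.

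Some members lay far above this range. Rps24, a small-subunit protein that is mutated in some families with Diamond-Blackfan anaemia in humans, had 17060, 19529 and 22267 in p110g-/- IFNg/LPS libraries, against 15204, 15831 and 17170 in p110g-/- M-CSF libraries. In WT macrophages it had 17810, 22824 and 20242 with IFNg/LPS, against 17916, 18070 and 17167 with M-CSF. The groups overlapped in both genotypes. Rps24 rose by 0.28 ± 0.10 on the log2 scale in p110g-/- macrophages (SE, limma adjusted p = 0.0205), and the value in WT macrophages was 0.19 ± 0.10 (SE), which did not pass, though it did with the library number as a block (limma adjusted p = 0.0483). The p110g-/- call did not hold without p110g-/- M-CSF number 1 (adjusted p = 0.0728), p110g-/- M-CSF number 2 (0.0523) or p110g-/- IFNg/LPS number 3 (0.12), all by limma. With library totals set equal the value was -0.12 in p110g-/- (limma adjusted p = 0.344) and -0.32 in WT macrophages (limma adjusted p = 0.0174). Rps24 thus passed as lower in WT macrophages there, so the direction rests on the scaling. IFNg/LPS libraries had a total signal of 60750188 to 67599523, and the other 12 libraries one of 45715012 to 49666236. Its share of the members' signal does not depend on scaling. Rps24 made up 6.03% of all ribosomal protein signal in p110g-/- and 5.72% in WT IFNg/LPS macrophages, against 1.71% and 1.81% with M-CSF. Per kilobase it stood first of the members in both genotypes with IFNg/LPS, and 8th in p110g-/- and 7th in WT macrophages with M-CSF.

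Rpl41, the smallest ribosomal protein, had 7093, 9613 and 8572 in p110g-/- IFNg/LPS libraries, against 9822, 10404 and 11464 in p110g-/- M-CSF libraries. In WT macrophages it had 7050, 9054 and 8140 with IFNg/LPS, against 10920, 12288 and 11544 with M-CSF. No groups overlapped. Rpl41 fell by 0.33 in p110g-/- and by 0.53 in WT macrophages on the log2 scale (limma adjusted p = 0.0155 and 0.000645). Rpl24 fell by 0.37 and 0.46, and Rps27l, a paralogue of Rps27 and a target of p53, fell by 0.23 in p110g-/- macrophages, where its groups overlapped, and by 0.52 in WT macrophages.

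Rpl3l, the paralogue of Rpl3 that replaces it in heart and skeletal muscle, had 36.1, 18 and 29.2 in p110g-/- IFNg/LPS libraries, against 3.4, 6.6 and 1.9 in p110g-/- M-CSF libraries. In WT macrophages it had 35.4, 34.5 and 37.9 with IFNg/LPS, against 3.1, 7.9 and 5.4 with M-CSF. The groups did not overlap, and the M-CSF libraries held only 2 to 9 reads each. The log2 fold change was 2.59 ± 0.43 in p110g-/- (SE, limma adjusted p = 5.34e-05) and 2.58 ± 0.43 in WT macrophages (SE, limma adjusted p = 5.48e-05). Its size depends on the added constant and spanned 1.57 to 2.96 in p110g-/- and 1.72 to 2.85 in WT macrophages over the alternatives. Rpl3l passed the filter on low values through the IFNg/LPS libraries alone, so that a difference was set by the filter.

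**Figure D3:**
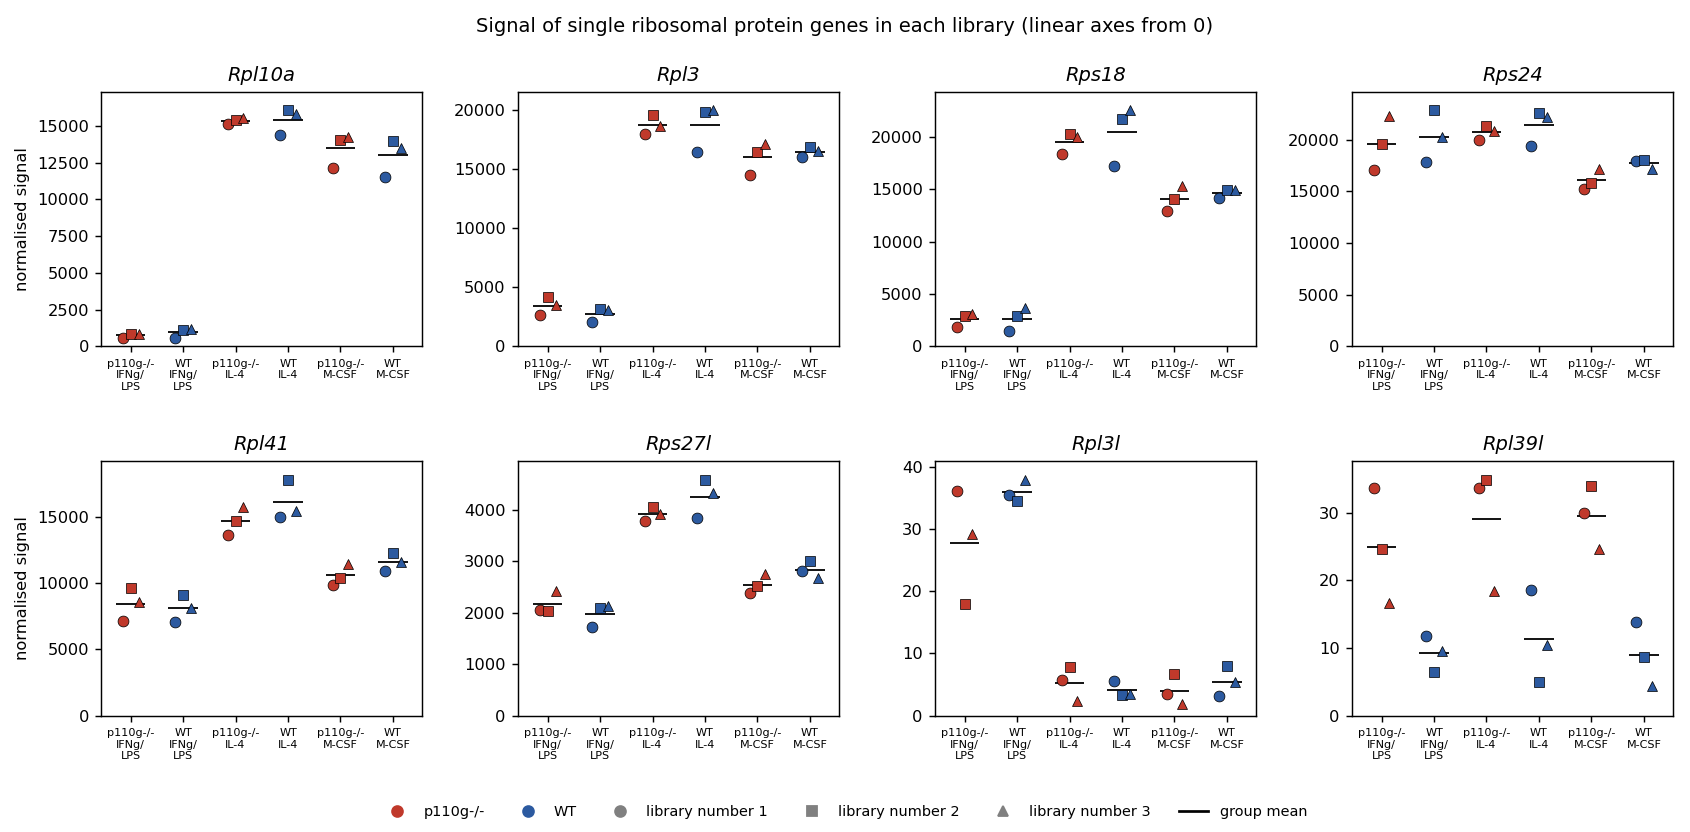
Signal of Rpl10a, Rpl3, Rps18, Rps24, Rpl41, Rps27l, Rpl3l and Rpl39l in each of the 18 libraries, on linear axes from 0, with p110g-/- left of WT within each condition. Rpl10a, Rpl3 and Rps18 drop with IFNg/LPS, Rps24 does not, Rpl3l is high with IFNg/LPS, and Rpl39l is high in most p110g-/- libraries.

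Number 1 was the lowest library of its group for most members with IFNg/LPS and IL-4, and less so with M-CSF. In WT IFNg/LPS number 1 was the lowest of its group for 77 of the 79 genes, by a median of 0.83 on the log2 scale below the mean of numbers 2 and 3, and in p110g-/- IFNg/LPS for 75 genes, by 0.45. With IL-4 number 1 was the lowest for 72 genes in p110g-/- and for 77 in WT macrophages, and with M-CSF for 61 genes in p110g-/- (median difference -0.10) and for 46 in WT macrophages (-0.03). Without IFNg/LPS number 1 the median log2 fold change was -1.69 in p110g-/- and -1.43 in WT macrophages, and with libraries 2 and 3 alone it was -1.71 and -1.45. Without the library labelled p110g-/- IFNg/LPS number 1, 72 members were lower (35.1% of all genes) and 2 higher (34.6%) in p110g-/- macrophages. Rpl10a then had -4.02, Rps21 -2.56, Rps18 -2.23, Rpl3 -2.07, Rps24 0.38 and Rpl3l 2.38, each past the threshold by limma. With equal library totals the median of the members was -2.25 in p110g-/- and -2.23 in WT macrophages. The median of all genes was -0.41 and -0.52 there. The members counted then were 76 lower (53.3% of all genes) and 1 higher (22.3%) in p110g-/-, and 77 lower (57.4%) and 1 higher (20%) in WT macrophages. What the number 1 libraries share is not given in the labels, and its part in these values was not tested.

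Other genes of the ribosomal protein family were mostly lower too. Of 5 listed ribosomal protein genes whose symbols fall outside the rule, Fau, Rpl22l1, Rpl7l1 and Rpl36al among them, 4 fell with IFNg/LPS in each genotype. Of all genes, 36.8% fell in p110g-/- and 37.5% in WT macrophages. Rps3a1 had log2 fold changes of -1.74 in p110g-/- and -1.54 in WT macrophages. Those of Rps12l2 were -1.56 and -1.49, and those of Rps4y2 were smaller, at -0.49 and -0.57. The table also held 18 pseudogene entries of the family, processed copies that resemble the messenger RNA, and all 18 had lower values with IFNg/LPS, with medians of -1.64 in p110g-/- and -1.55 in WT macrophages. How reads that match several copies were assigned is not given in the sources used here, so reads of a gene and its copies may be split or shared.

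Genes that serve the ribosome were read from lists chosen with earlier results known. The list of elongation factors, which carry tRNA to the ribosome and move it along, held 8 genes and counts Eef2k among them. With IFNg/LPS 7 of the 8 fell and 0 rose in each genotype. Of all genes, 36.8% fell and 36.2% rose in p110g-/-, and 37.5% fell and 36.3% rose in WT macrophages. The list had median log2 fold changes of -1.72 in p110g-/- and -1.76 in WT macrophages. Eef2k, the kinase that slows elongation by modifying Eef2, had 113, 160 and 119 in p110g-/- IFNg/LPS libraries, against 1315, 1446 and 1262 in p110g-/- M-CSF libraries. It had 109, 142 and 96 in WT IFNg/LPS libraries, against 1501, 1404 and 1399 in WT M-CSF libraries, and no groups overlapped. Its log2 fold change was -3.37 ± 0.14 in p110g-/- (SE, limma adjusted p = 1.42e-11) and -3.64 ± 0.14 in WT macrophages (SE, limma adjusted p = 6.35e-12). Eef1a1, the main carrier of tRNA to the ribosome and named after its values were seen, had -3.64 and -3.22. Without the library labelled p110g-/- IFNg/LPS number 1, Eef2k had -3.27 and Eef1a1 -3.47 in p110g-/- macrophages. Of the list 7 genes were again lower and 0 higher (35.1% and 34.6% of all genes).

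Initiation factors split, as did all genes. Of 33 tested, 12 rose and 15 fell in p110g-/- macrophages, and 11 rose and 15 fell in WT macrophages, with medians of 0.02 and -0.11. Of all genes, 36.2% rose and 36.8% fell in p110g-/-, and 36.3% rose and 37.5% fell in WT macrophages. With equal library totals 8 were higher and 21 lower in p110g-/- (22.3% and 53.3% of all genes). In WT macrophages 5 were then higher and 24 lower (20% and 57.4%). Eif1, which guards the choice of start codon, rose by 1.07 in p110g-/- and 0.96 in WT macrophages on the log2 scale (limma adjusted p = 6.81e-09 and 2.45e-08). Eif4b, the partner of the Eif4a helicase and itself a transcript with a pyrimidine start, had -1.58 and -1.63 (limma adjusted p = 1.63e-09 and 1.17e-09). Of 9 other transcripts known to start with a pyrimidine tract, 7 fell and 1 rose in each genotype, with medians of -1.10 in p110g-/- and -0.86 in WT macrophages. The one that rose was Vim, which encodes the intermediate filament vimentin and had 1.25 and 1.44, and among those that fell Npm1, a nucleolar chaperone of ribosome assembly, had -1.44 and -1.60.

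Ribosome assembly genes were mostly lower too. Of 63 assembly factors, 37 fell and 8 rose in p110g-/- macrophages (median -0.52), and 47 fell and 5 rose in WT macrophages (median -0.61). Without the library labelled p110g-/- IFNg/LPS number 1, 35 were lower and 9 higher in p110g-/- macrophages (35.1% and 34.6% of all genes). Of 19 genes for RNA polymerase I, which makes ribosomal RNA, and its factors, 8 fell and 2 rose in p110g-/- and 11 fell and 2 rose in WT macrophages, where 36.8% of all genes fell and 36.2% rose in p110g-/- and 37.5% fell and 36.3% rose in WT macrophages. Without the library named above 6 were lower in p110g-/- macrophages, and with equal library totals 17 were lower and 1 higher in each genotype. Polr1b, its second largest subunit, had -1.56 in p110g-/- and -1.95 in WT macrophages. The 34 listed regulators of ribosomal protein RNA went both ways, with 13 lower and 15 higher in p110g-/- and 16 lower and 13 higher in WT macrophages, and with equal totals 18 lower and 11 higher in p110g-/- and 20 lower and 9 higher in WT macrophages. Among them Deptor, an inhibitor of mTOR, had -6.11 in p110g-/- and -5.42 in WT macrophages, and Mdm2, the p53 ligase that free ribosomal proteins bind, rose by 2.93 in both.

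**Figure D4:**
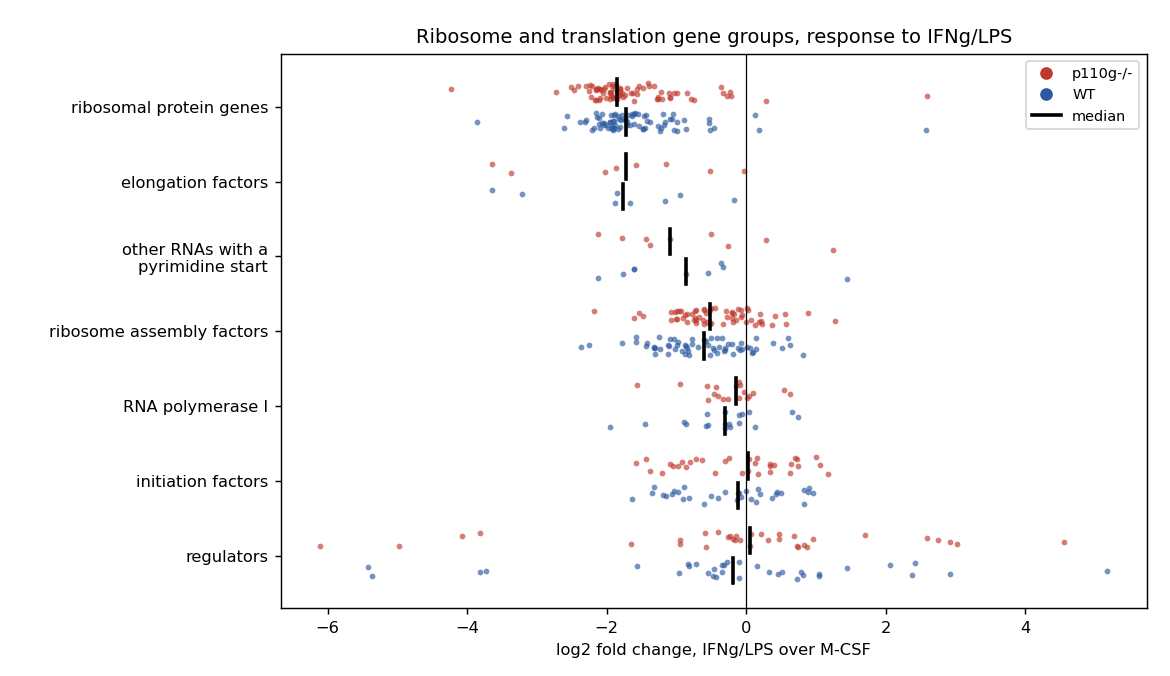
Log2 fold change of IFNg/LPS over M-CSF for single genes of each list of translation and ribosome assembly genes, p110g-/- in red and WT in blue, with the median of each list. The ribosomal proteins and the list of elongation factors, which includes Eef2k, have medians near -1.7 to -1.85, and initiation factors have medians near 0.

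Some lists of markers of other cell states and cell types also differed with IFNg/LPS. Of all genes, 36.8% fell and 36.2% rose in p110g-/-, and 37.5% fell and 36.3% rose in WT macrophages. Of 30 cell cycle genes, 27 fell and 2 rose with IFNg/LPS in p110g-/- macrophages and 26 fell and 2 rose in WT macrophages. Their summed signal was 22780 to 24120 in p110g-/- and 25790 to 33980 in WT IFNg/LPS libraries, and 35620 to 43900 in p110g-/- and 45860 to 64270 in WT M-CSF libraries. The 12 neutrophil and granule markers summed to 1287 to 2203 in p110g-/- and 2790 to 3894 in WT IFNg/LPS libraries, with Elane and Retnlg at 0 in all of these, and to 10670 to 28040 in p110g-/- and 7458 to 33850 in WT M-CSF libraries, with 10 lower and 1 higher in p110g-/- and 8 lower and 2 higher in WT. The 9 dendritic cell markers summed to 8115 to 21060 in p110g-/- and 1797 to 5340 in WT IFNg/LPS libraries, against 580.3 to 886.3 in p110g-/- and 623.8 to 641.5 in WT M-CSF libraries. As single genes they went both ways, as did all genes, with 4 higher and 3 lower in p110g-/- and 4 higher and 4 lower in WT macrophages. The part of any of these in the ribosomal protein values was not tested.

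The next comparison asks whether alternative activation by IL-4 moved the same genes. With IL-4 most of them were slightly higher than with M-CSF, and few passed the test, which did not pair libraries by number. In p110g-/- macrophages 5 genes rose and 0 fell (22.7% of all genes rose and 21.2% fell), and in WT macrophages 5 rose and 0 fell (22.9% of all genes rose and 21.1% fell), by limma. The log2 fold change was positive for 75 of 79 genes in p110g-/- (median 0.19) and for 74 in WT macrophages (median 0.18), with medians of all genes of -0.01 and 0.003. Groups stood apart with IL-4 above for 47 genes in p110g-/- (29.9% of all genes) and 39 in WT macrophages (29.8%). The summed signal was 1026114, 1095001 and 1103374 in p110g-/- IL-4 libraries and 1009551, 1173857 and 1167984 in WT IL-4 libraries, each above every M-CSF library of its genotype. The share of all signal was 2.23% ± 0.11 in p110g-/- and 2.3% ± 0.23 in WT IL-4 macrophages (SD, n = 3 each).

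The 5 genes that rose were Rps27l, Rpl41, Rps2, Rps26 and Rps24 in each genotype. Rps27l had 3784, 4051 and 3920 in p110g-/- IL-4 libraries, against 2377, 2509 and 2745 in p110g-/- M-CSF libraries. In WT macrophages it had 3832, 4584 and 4330 with IL-4, against 2817, 3010 and 2670 with M-CSF. Its groups stood well apart, with a log2 fold change of 0.62 ± 0.10 in p110g-/- (SE, limma adjusted p = 7.79e-05) and 0.58 ± 0.10 in WT macrophages (SE, limma adjusted p = 0.000163). Rpl41 had 13630, 14646 and 15712 in p110g-/- IL-4 libraries, against 9822, 10404 and 11464 in p110g-/- M-CSF libraries, and 14992, 17786 and 15452 in WT IL-4 libraries, against 10920, 12288 and 11544 in WT M-CSF libraries. No groups overlapped, and the log2 fold change was 0.47 in both genotypes (limma adjusted p = 0.00342 in p110g-/- and 0.00366 in WT macrophages).

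Rps2, a protein at the entry of the mRNA channel, had 8323, 8567 and 8563 in p110g-/- IL-4 libraries, against 6189, 6283 and 6975 in p110g-/- M-CSF libraries. In WT macrophages Rps2 had 7745, 9545 and 9390 with IL-4, against 5838, 6735 and 6452 with M-CSF. All IL-4 libraries were above all M-CSF libraries, with log2 fold changes of 0.39 ± 0.14 in p110g-/- (SE, limma adjusted p = 0.0281) and 0.48 ± 0.14 in WT macrophages (SE, limma adjusted p = 0.00873). Rps24 rose by 0.37 in p110g-/- and by 0.27 in WT macrophages (limma adjusted p = 0.00819 and 0.042). The Rps2 call in p110g-/- macrophages did not hold without any one of the 6 libraries except M-CSF number 3 (adjusted p = 0.0521 to 0.0842), and the Rps24 call in WT macrophages did not hold without any one M-CSF library or IL-4 number 2 or 3 (0.068 to 0.142), all by limma. Rps26, which contacts mRNA upstream of the start codon, had log2 fold changes of 0.45 in p110g-/- and 0.41 in WT macrophages (limma adjusted p = 0.0206 and 0.0337). The Rps26 call did not hold with equal library totals (adjusted p = 0.0548 in p110g-/- and 0.108 in WT), nor in p110g-/- macrophages without M-CSF number 1 or 2 or IL-4 number 3 (0.0546 to 0.0706), nor in WT macrophages without any one M-CSF library or IL-4 number 2 or 3 (0.0609 to 0.101), all by limma.

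The one gene with IL-4 libraries wholly below the M-CSF libraries in both genotypes was Rps27, the parent of Rps27l. Rps27 had 5904, 6909 and 7393 in p110g-/- IL-4 libraries, against 7626, 8083 and 8452 in p110g-/- M-CSF libraries, and 5934, 6644 and 6474 in WT IL-4 libraries, against 7723, 7592 and 8462 in WT M-CSF libraries. Its log2 fold change was -0.26 in p110g-/- and -0.32 in WT macrophages and did not pass (limma adjusted p = 0.275 and 0.184). Of all genes, 28.1% stood apart in this direction in p110g-/- and 27.5% in WT macrophages. The number of members that rose with IL-4 depended on the model of the spread. With the library number as a block, 12 rose in p110g-/- (24.7% of all genes) and 14 in WT macrophages (25%). With only the groups compared in the fit, 40 rose in p110g-/- (25.9%) and 32 in WT macrophages (26%), and Rps27 fell in both (23.3% and 22.5%). With equal library totals 3 rose in each genotype, Rps27l, Rpl41 and Rps24 in p110g-/- and Rps27l, Rpl41 and Rps2 in WT macrophages.

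**Figure D5:**
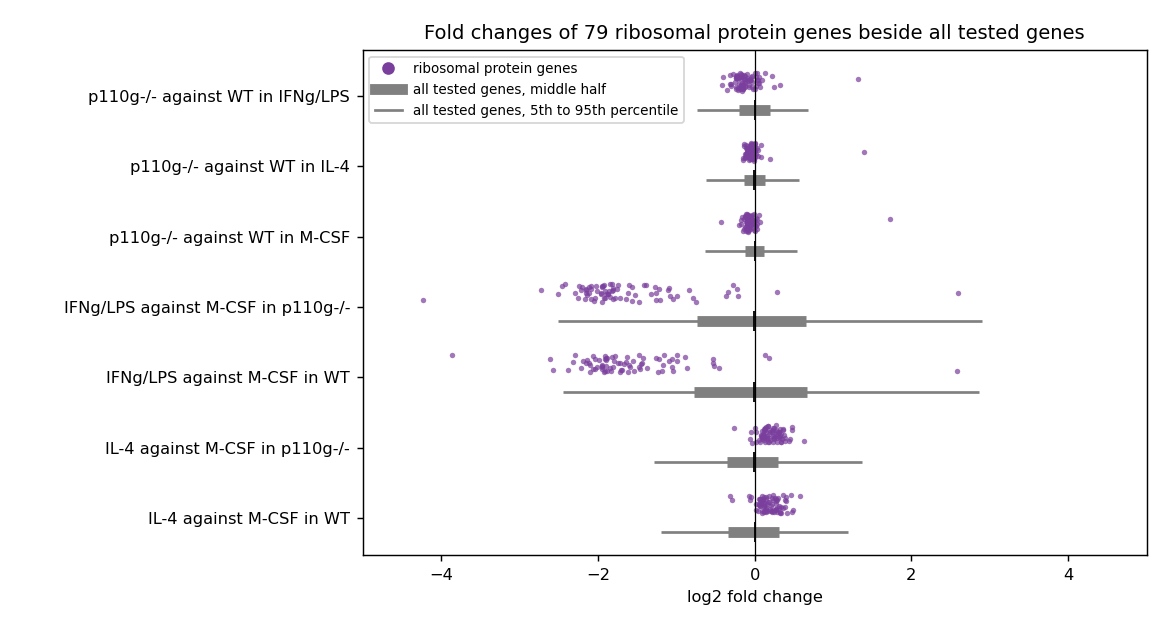
Log2 fold changes of the 79 ribosomal protein genes (points) in each comparison, above bars for all tested genes (thick, interquartile range; thin, 5th to 95th percentile). Most points lie left of 0 with IFNg/LPS, slightly right of 0 with IL-4 and close to 0 between genotypes, where Rpl39l stands apart.

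Around the ribosome, many assembly genes were higher with IL-4. Of 63 assembly factors, 33 rose and 0 fell in p110g-/- macrophages (median 0.34), and 42 rose and 1 fell in WT macrophages (median 0.43). Of all genes, 22.7% rose and 21.2% fell in p110g-/-, and 22.9% rose and 21.1% fell in WT macrophages. Dkc1, the pseudouridine synthase of ribosomal RNA, rose by 0.86 in p110g-/- and 0.99 in WT macrophages (limma adjusted p = 0.000102 and 3.32e-05), and Rpf2, which helps place the 5S RNA particle, rose by 0.62 and 0.80. Eif5a, needed at stretches of proline, rose by 0.90 in p110g-/- and 1.13 in WT macrophages (limma adjusted p = 6.95e-05 and 8.63e-06). Myc, a transcription factor that drives ribosome genes, had 1665, 2035 and 2115 in p110g-/- IL-4 libraries, against 528, 565 and 490 in p110g-/- M-CSF libraries, and 1516, 2396 and 2518 in WT IL-4 libraries, against 448, 646 and 461 in WT M-CSF libraries. Its groups did not overlap, and it rose by 1.87 in p110g-/- and 2.03 in WT macrophages (limma adjusted p = 1.39e-05 and 6.91e-06). All 30 cell cycle genes rose with IL-4 in each genotype, by medians of 2.00 in p110g-/- and 1.04 in WT macrophages, to summed signals of 95110 to 105300 in p110g-/- and 81060 to 114100 in WT IL-4 libraries. Of the 11 macrophage markers 9 fell with IL-4 in p110g-/- (21.2% of all genes) and 10 in WT macrophages (21.1%). The part of either list in the ribosomal protein values was not tested.

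The last comparison sets p110g-/- against WT macrophages, and there the differences of these genes were small. By limma without the library number as a block, 0 of the 79 genes passed in any condition. With the block, 3 were higher (9.3% of all genes) and 1 lower (9.73%) with IFNg/LPS, where libraries count as paired. Without the block, 2.34% of all genes passed with M-CSF (1.06% higher, 1.27% lower). With IFNg/LPS 14.7% passed (6.94% higher, 7.79% lower), and with IL-4 3.33% (1.34% higher, 1.99% lower). At an unadjusted p under 0.05 there were 1, 4 and 1 members, edgeR called 0 in each condition, and DESeq2 called Rpl39l with M-CSF and with IFNg/LPS and 0 with IL-4. Those with IFNg/LPS included Rpl39l, Rpl7a (-0.24) and Rps9 (-0.24). The median log2 fold change of p110g-/- over WT was -0.07 with M-CSF, -0.15 with IFNg/LPS and -0.05 with IL-4, and 68, 62 and 65 of the 79 values were negative. The SE of such a value had a median over the members of 0.19. With M-CSF, 9 genes, among them Rpl19, Rpl21, Rplp0, Rplp2, Rps7, Rps12, Rps19 and Rps27a, had p110g-/- libraries wholly below the WT ones (10.9% of all genes), by 0.09 to 0.17, and Rpl39l had them above (10.7%). With IFNg/LPS only Rpl39l stood apart among the members (13.4% of all genes, higher) and with IL-4 only Rpl31, by -0.11 (11.4%, lower). Outside the rule, Rps4y2 passed as lower in p110g-/- macrophages with IFNg/LPS (-0.50, limma adjusted p = 0.0472). Its values were -0.59 with M-CSF (limma adjusted p = 0.0767) and -0.55 with IL-4 (0.0837). Rps3a1 and Rps12l2 did not pass between genotypes.

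With IFNg/LPS the comparison turned on single libraries. Set side by side by number, p110g-/- was higher than WT for 70 of 79 genes in number 1 (median 0.15) and lower for 70 genes in number 2 (median -0.23) and for 70 in number 3 (median -0.30). Without WT IFNg/LPS number 1, 43 members were lower in p110g-/- macrophages (10.1% of all genes) with a median of -0.42. Without p110g-/- IFNg/LPS number 1, the library whose Pik3cg was high, 0 were lower (7.99% of all genes) and Rpl3 and Rps2 were higher (8%). The median of the members was then 0.03. With libraries 2 and 3 alone 45 were lower (14.4% of all genes) and Rpl3 and Rps2 were higher (12.7%). With the library number as a block 3 members were higher, Rpl39l and Rpl3 among them (9.3%), and Rps9 was lower (9.73%). Without WT IFNg/LPS number 3, 1 member was higher and 0 were lower, and the share of all genes is not given here for that fit. The difference between the genotypes in their response was tested over all genes and passed for 0 members, with IFNg/LPS (2.44% of all genes, 1.02% higher and 1.42% lower) and with IL-4 (0% of all genes), by limma, edgeR and DESeq2 alike. At an unadjusted p under 0.05 these were 2 members with IFNg/LPS, Rps27l among them, and 0 with IL-4.

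Rpl39l, the paralogue of Rpl39 known for its expression in the mouse testis, was the member that differed most between genotypes. It had 33.7, 24.7 and 16.6 in p110g-/- and 11.8, 6.5 and 9.5 in WT IFNg/LPS libraries, 33.7, 34.9 and 18.5 in p110g-/- and 18.6, 5.0 and 10.5 in WT IL-4 libraries, and 29.9, 33.9 and 24.7 in p110g-/- and 13.8, 8.7 and 4.3 in WT M-CSF libraries. The groups stood apart with M-CSF and IFNg/LPS, and with IL-4 p110g-/- number 3 lay just below WT number 1. These values come from 17 to 47 reads in p110g-/- and 4 to 20 reads in WT libraries. The log2 fold change was 1.73 ± 0.44 with M-CSF (SE, limma adjusted p = 0.0571), 1.32 with IFNg/LPS (0.059) and 1.39 with IL-4 (0.117), none of which passed. With the library number as a block, which pairs libraries in the IFNg/LPS comparison, the adjusted p there was 0.021 by limma. The adjusted p spanned 0.0153 to 0.206 with M-CSF, 0.021 to 0.182 with IFNg/LPS and 0.0294 to 0.424 with IL-4 over the alternatives. It passed without WT M-CSF number 1 (0.0344 by limma, M-CSF) and without WT IL-4 number 1 (0.0406 by limma, IL-4).

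A contrast averaged over the 3 conditions was added after these values were seen. There Rpl39l was 1.48 ± 0.26 higher in p110g-/- macrophages (SE, limma adjusted p = 0.00132), and higher in the p110g-/- group of each condition. It was the only one of the 79 genes to pass, where 11.8% of all genes passed, and it was picked for its difference. Leaving out one library at a time gave 1.33 to 1.62, with limma adjusted p of 0.000535 to 0.004. The contrast treats all libraries as independent. Same-numbered libraries of one genotype deviated together between IL-4 and M-CSF, with correlations of 0.19 to 0.40 in p110g-/- and 0.18 to 0.46 in WT macrophages. For Rpl39l, WT number 1 was the highest and p110g-/- number 3 the lowest of its group in all 3 conditions. The SE and p-values of this contrast may thus be too small, which leaving out single libraries does not test. Most WT values lie near the filter on low values. Every p110g-/- library reached a signal of 10. So did WT M-CSF number 1 (13.8), WT IFNg/LPS number 1 (11.8) and WT IL-4 numbers 1 and 3 (18.6 and 10.5). The WT libraries alone would thus have met the filter. Without the library labelled p110g-/- IFNg/LPS number 1 the value of Rpl39l with IFNg/LPS was 1.09 (limma adjusted p = 0.157). In that contrast averaged over conditions 73 of the 79 values were negative, with a median of -0.08, against -0.001 over all genes.

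Marker lists of other cell types also had unlike levels in the genotypes. The 7 fibroblast markers tested had median log2 fold changes of p110g-/- over WT of 1.51 with M-CSF, where 1 passed as higher, 0.83 with IFNg/LPS and 1.07 with IL-4, where 0 passed by limma. The summed signal of all 8 listed was 343.6 to 584.7 in p110g-/- and 298.5 to 363.3 in WT IFNg/LPS libraries, 775.1 to 1416 in p110g-/- and 246.1 to 1094 in WT IL-4 libraries, and 1612 to 3636 in p110g-/- and 391.8 to 2492 in WT M-CSF libraries. The 5 mast cell and basophil markers had medians of -1.01 with M-CSF, where 0 passed by limma, -0.66 with IFNg/LPS, where 2 were lower, and -1.76 with IL-4, where 3 were lower. Their sums overlapped between genotypes with IFNg/LPS (80.6 to 209.4 in p110g-/- and 69.4 to 91.6 in WT libraries). They were lower in every p110g-/- library with IL-4, at 100.4 to 134.9 in p110g-/- and 250.7 to 467.1 in WT libraries, and with M-CSF, at 93.9 to 231 in p110g-/- and 238.5 to 301.8 in WT libraries. The 30 cell cycle genes had medians of -0.76 with M-CSF, -0.11 with IFNg/LPS, where 1 was lower, and 0.09 with IL-4. Of all genes, 1.06% were higher with M-CSF, and 7.79% were lower with IFNg/LPS and 1.99% with IL-4. The part of these lists in the genotype values of Rpl39l and the other members was not tested.

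Around the ribosome with IFNg/LPS, 12 of 63 assembly factors were higher and 1 lower in p110g-/- than in WT macrophages, by limma. Of 19 polymerase I genes 6 were higher and 1 lower, where 6.94% of all genes were higher and 7.79% lower. Without the library labelled p110g-/- IFNg/LPS number 1 these were 23 and 0 of 63 and 6 and 0 of 19 (8% of all genes higher and 7.99% lower), and with equal library totals 20 and 0 of 63 and 7 and 0 of 19 (12.4% higher and 4.75% lower). Imp3, a part of the small subunit processome, had 359, 420 and 331 in p110g-/- and 210, 260 and 283 in WT IFNg/LPS libraries. Its groups stood apart, with a log2 fold change of 0.56 ± 0.12 (SE, limma adjusted p = 0.00444), and missed the threshold with only the 2 groups in the fit (0.0922). Without that library it was 0.58 (limma adjusted p = 0.00861). Of the 8 genes listed with the elongation factors 0 passed in this comparison by limma, and Eef1a1 had a value of -0.47 (limma adjusted p = 0.19).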

How the data were processed

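Libraries were grouped by the titles in the labels. The submitters' processing notes name CASAVA 1.8.2, Bowtie2, DESeq and the build mm9, without roles. The deposited signal is, from its steps, a gene's read count that the authors divided by one factor per library and rounded to 1 decimal: 99.99 to 100% of values are whole reads within 0.1. Counting, strand and annotation are not given in the sources used here. One library differs from another in what a read is worth: 3 reads equal 2.15 to 4.74 of signal, a limit from counting error alone.

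Kept were 15627 of 16474 genes, all 79 members among them, that reached a signal of 10 in 3 or more libraries. They were fitted with limma 3.58.1 in R 4.3.3 on log2(signal + 1), with 6 group means over 18 libraries, 12 residual degrees of freedom, variance trend and robust fitting. Log2 fold changes are on this scale, which understates those of low genes. P-values were adjusted by Benjamini-Hochberg over all genes at 0.05. The stimulus comparisons and the differences between them share M-CSF libraries. Alternatives were edgeR 4.0.16 and DESeq2 1.42.0 on the recovered reads, a pseudocount of 8, no filter, equal totals, the library number as a block, libraries 2 and 3 alone, only the groups compared, and each library left out. The fit was tested on simulated data.

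Named were, per comparison, up to 4 members per direction of smallest adjusted p, the 3 farthest from the median on each side, the 5 highest, fixed paralogues, and up to 2 genes per list and direction. Some genes are counted but not reported here by name. Members and lists were chosen with earlier results of these data known.

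Same-numbered libraries deviated together in some comparisons, with every correlation over 0.1, and so count as paired there. These were p110g-/- against WT with IFNg/LPS (0.26 to 0.55) and IFNg/LPS against M-CSF in WT (0.16 to 0.26). IL-4 against M-CSF in WT (0.18 to 0.46) and p110g-/- (0.19 to 0.40) count as paired too, and the other comparisons do not. The main fit leaves this pairing out. Counts, SE and p-values therefore do not use it unless the library number is named as a block.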

Additional observations from a re-analysis of the deposited data

Results flagged for a closer look

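Among the genes named beside the ribosomal proteins, 2 differed between genotypes in their response to IFNg/LPS by a test of that difference itself, which shares the M-CSF libraries with the other comparisons. Wdr36, a factor of small subunit assembly, had 785, 852 and 844 in p110g-/- and 548, 652 and 641 in WT IFNg/LPS libraries, and 1676, 1580 and 1668 in p110g-/- and 1580, 1629 and 1710 in WT M-CSF libraries. The groups stood apart with IFNg/LPS and overlapped with M-CSF. The difference of the genotype effect was 0.43 ± 0.10 on the log2 scale (SE, limma adjusted p = 0.0395), and its adjusted p spanned 0.00401 to 0.0996 over the alternatives, over the threshold without any single M-CSF library or without p110g-/- IFNg/LPS number 2 or 3. Without p110g-/- IFNg/LPS number 1, whose Pik3cg was high, it was 0.47 (0.0312). Mxi1, an antagonist of Myc, had 4668, 3649 and 3222 in p110g-/- and 2703, 1993 and 1650 in WT IFNg/LPS libraries, and 2332, 2263 and 2197 in p110g-/- and 2793, 2304 and 2450 in WT M-CSF libraries. The difference was 1.02 ± 0.21 (SE, limma adjusted p = 0.0178), with adjusted p of 0.000376 to 0.0721 over the alternatives, the last with only the groups compared, and it was 0.87 (0.0244 by limma) without p110g-/- IFNg/LPS number 1. Of the 79 ribosomal protein genes 0 passed this test in limma, with 2 at an unadjusted p under 0.05 and 0 by edgeR and DESeq2.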

How the results depend on the processing

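Of the 276 counts of members called under an alternative, 229 stayed within 1.5 times the count given and 47 did not; of 138 medians 132 stayed within the spread, and of 2403 values of single genes 2273 kept direction and side of the threshold. The falls with IFNg/LPS spanned 72 to 75 of 79 members in p110g-/- macrophages over single libraries left out. Members higher in p110g-/- than WT macrophages numbered 1 with M-CSF and 1 with IFNg/LPS under a pseudocount of 8 and under DESeq2, and 1 with IFNg/LPS under equal totals. Equal totals also left 1 member higher with IFNg/LPS in p110g-/- macrophages and 3 higher with IL-4 in each genotype. With the library number as a block, the genotype comparison had 1 higher with M-CSF, 3 higher and 1 lower with IFNg/LPS and 1 higher with IL-4, and 2 were higher with IFNg/LPS in WT macrophages, 12 with IL-4 in p110g-/- and 14 in WT macrophages; it moved no other count by over 1.5 times. With libraries 2 and 3 alone the genotype comparison had 1 higher with M-CSF, 2 higher and 45 lower with IFNg/LPS and 1 higher with IL-4. In WT macrophages 2 were higher with IFNg/LPS, and 45 were higher and 1 lower with IL-4. In p110g-/- macrophages 36 were higher with IL-4, and 7 were lower in the difference between genotypes with IFNg/LPS. The share of all genes is not given here for the IL-4 counts or for this difference. With only the groups compared, 1 was higher with IFNg/LPS in p110g-/- macrophages, 40 were higher and 1 lower with IL-4 in p110g-/- and 32 higher and 1 lower in WT macrophages.

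With each library left out, members higher in p110g-/- than WT macrophages numbered 0 to 1 with M-CSF, 0 to 2 with IFNg/LPS (0 to 43 lower) and 0 to 1 with IL-4. Those higher with IFNg/LPS numbered 1 to 2 in each genotype, those higher with IL-4 3 to 5 in each genotype, and those lower in the difference between genotypes with IFNg/LPS 0 to 4. The share of all genes is not given here for these ranges, so they are not set against it. Directions turned for Rps24 with IFNg/LPS under equal totals, to -0.12 in p110g-/- and -0.32 in WT macrophages, the latter past the threshold (limma adjusted p = 0.0174). They turned for Rpl39l with IFNg/LPS in WT macrophages (edgeR -0.06, DESeq2 -0.024, equal totals -0.32, single libraries left out -0.26 to 0.48), with IL-4 in p110g-/- macrophages (single libraries left out -0.22 to 0.22) and in the difference between genotypes with IL-4 (-0.78 to 0.073). They turned for Rpl10a between genotypes with M-CSF, at -0.032 without WT M-CSF number 1 (range -0.032 to 0.13), and for Rpl3l between genotypes with IL-4, at -0.10 without p110g-/- IL-4 number 2 (range -0.10 to 0.61), values that passed nowhere. The cause was not tested. With 3 libraries a group the SE of a genotype difference had a median over the members of 0.19 on the log2 scale, and Rpl3l and Rpl39l are limited by their few reads.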
